A study of Ovis aries with 6 samples.

Results

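The hair keratins of the wool cortex and cuticle were taken from skin RNA of 3 SM (Super Merino) and 3 STH (Small Tail Han) sheep. They were chosen by symbol, as the genes named KRT32, KRT34, KRT35, KRT36, KRT38, KRT39, KRT40, KRT82, KRT84 or KRT85. Of these 10 symbols 8 were found among the 28394 genes of the files, and KRT38 and KRT85 were not analysed here because no gene was listed under either symbol. Super Merino is a fine wool breed and Small Tail Han a coarse wool breed. The labels give an age of 9 months for all 6 sheep and skin from behind the shoulder blade, whereas the methods of the study give a younger age. By those methods all were ewes kept on the same farm with the same feed and sampled while follicles were expected to be growing. Each library is 1 sheep. The labels are 128, 30034 and 30126 for SM and XW3, XW5 and XW8 for STH, and values for single sheep are always given in this order.

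A keratin filament is built from pairs of a type I (acidic) and a type II (basic) keratin. The hair keratins are the sulphur-rich members of both types, made by cells that leave the follicle matrix and harden into the shaft, where the filaments are set in a matrix of keratin-associated proteins. The cortex is the body of the fibre and the cuticle its covering of overlapping scales. Cells surrounding the shaft, in the inner and outer root sheath, and cells of the epidermis use other keratins.

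Of the 8 genes 6 are type I and 2 are type II. In the coordinates of Oar_v4.0, the genome build of the files, the type I genes all lie on the minus strand of chromosome 11, within 440 kb from 40688997 to 41128793. From the lowest coordinate upwards they are KRT39 (40688997 to 40697822), KRT40 (40707307 to 40714285), KRT34 (41028532 to 41033351), KRT32 (41100685 to 41112236), KRT35 (41112382 to 41117562) and KRT36 (41124768 to 41128793). KRT32 and KRT35 are separated by 145 bases. The type II genes KRT82 (133633605 to 133648581) and KRT84 (133653388 to 133662497) are neighbours on the plus strand of chromosome 3, 4806 bases apart. How reads shared between similar keratin genes of these clusters were assigned is not given in the sources used here, so that a part of the reads of any of these genes could belong to a close relative.

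Total counts ranged from 28870583 to 44645091 per sheep, so that 3 counts corresponded to between 0.0672 and 0.104 CPM (the count scaled to library size, with the TMM factors of edgeR). All 8 hair keratins reached 10 counts in 3 or more sheep, a filter that left 15320 genes for testing. Their lowest count in any library was 814, for KRT40, where counting error alone is 3.50%. The libraries held the tissue that the labels name. Tested markers of the epidermis summed to between 10496 and 20873 CPM and tested markers of dermal fibroblasts to between 14386 and 20748 CPM. The share of counted fragments lying in exons, relative to SM sheep 128, was 1.08 and 1.18 in SM sheep 30034 and 30126 and lay between 1.02 and 1.07 in STH sheep.

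Levels of different genes were compared as TPM, which corrects for gene length. KRT34, a type I keratin of the cortex, was the highest of the 8 at 1847 ± 457 TPM (SD over 6 sheep). KRT35, a type I keratin of cells newly entering the cortex and cuticle, followed at 929 ± 366 TPM. The level of KRT34 was above that of KRT35 in 6 of 6 sheep, with a ratio of the means of 1.99. KRT82, a type II keratin of the cuticle, was next at 119 ± 33.8 TPM, so that the mean of KRT35 was 7.81 times that of KRT82. KRT39 had 90.8 ± 20.4, KRT36 87.2 ± 28.4 and KRT32 62.3 ± 16.7 TPM. KRT84 and KRT40 were lowest at 46.2 ± 13.9 and 41.6 ± 11.9 TPM.

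The order of these levels was not equally firm along its length. KRT35 was above KRT82 and KRT36 was above KRT32 in 6 of 6 sheep. KRT82 was above KRT39, and KRT32 above KRT84, in 5 of 6. The neighbours KRT84 and KRT40 had their order in 3 of 6 sheep, with sheep of both breeds on either side. The neighbours KRT39 and KRT36 also had their order in 3 of 6 sheep, but these were the 3 STH sheep. KRT36 had 109, 88.6 and 124 TPM in SM and 62.9, 47.4 and 91.1 TPM in STH, and KRT39 had 95.8, 81.7 and 78.9 TPM in SM and 109, 62.4 and 117 TPM in STH. The level of KRT36 was thus the higher of the pair in every SM sheep and the lower in every STH sheep, which is given as a description without a test.

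The 8 genes together made up 0.335%, 0.289% and 0.444% of all transcripts (as TPM) in SM. In STH the share was 0.381%, 0.200% and 0.285%. The means were 0.356 ± 0.0796% and 0.289 ± 0.0906% (SD, n = 3 for each breed), and the breeds overlapped. KRT34 and KRT35 alone supplied between 83.4% and 88.4% of the TPM of the 8 genes. The part of KRT34 was 60.9%, 54.9% and 50.2% in SM and 62.6%, 57.8% and 59.2% in STH. The part of KRT35 was 25.8%, 29.9% and 36.3% in SM and 25.8%, 28.0% and 24.2% in STH. SM sheep 30126 therefore had the largest part of KRT35 and the smallest of KRT34, but the remaining sheep did not separate by breed.

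**Figure D1:**
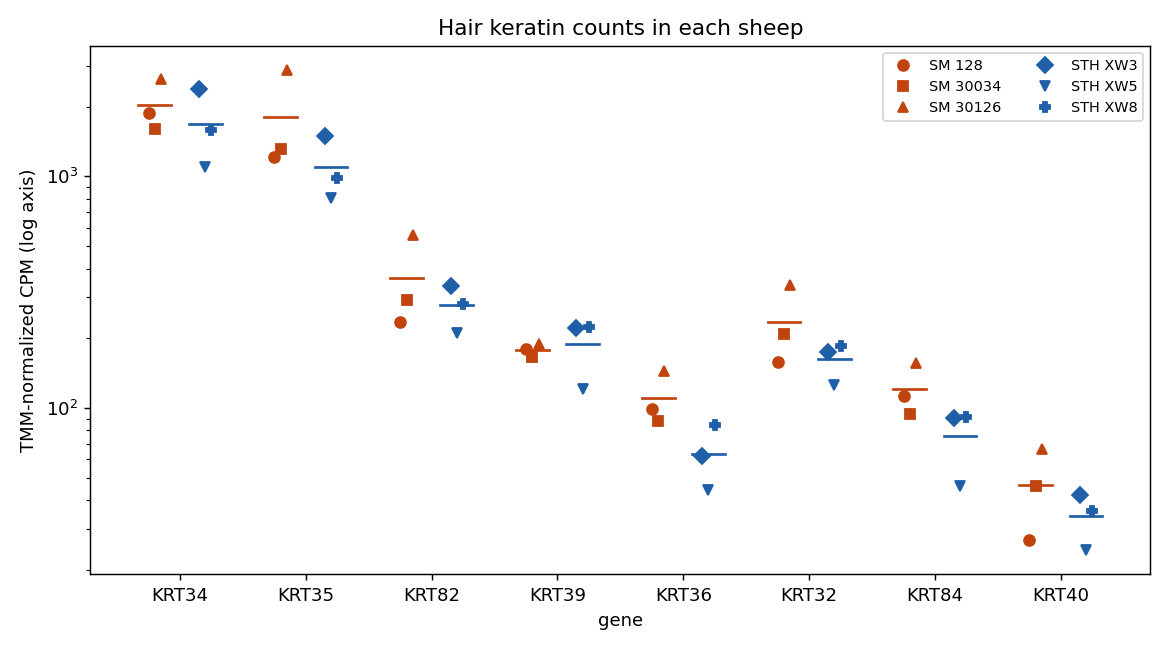
TMM-normalized CPM (log axis) of each of the 8 hair keratins, ordered by mean TPM, with 1 point for each sheep and a bar for the mean of each breed (SM in orange, STH in blue). SM sheep 30126 is the highest point for 7 of the 8 genes and STH sheep XW5 the lowest for all 8, and only for KRT36 and KRT84 do the breeds not overlap.

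The breeds were then compared gene by gene. A gene passed when its adjusted p was under 0.05 and its change was over 1.5-fold in either direction. Standard errors (SE) and adjusted p are those of the quasi-likelihood test of edgeR over all genes tested, unless another test is named. By that test 0 of the 8 hair keratins passed, and so did 0.0% of all genes in either direction. By DESeq2 0 of the 8 passed as well, against 1.02% of the genes as higher in SM and 1.85% as higher in STH, and by the likelihood ratio test of edgeR 0 of the 8, against 0.868% and 1.43%. At an unadjusted p under 0.05, 2 of the 8 were higher in SM, KRT36 and KRT84, against 7.21% of all genes tested, and 0 were higher in STH, against 10.8%. In whole skin, more cells that make a keratin and more of its RNA in each cell cannot be told apart.

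KRT36, known from the cortex, had the largest difference. It had 98.8, 87.5 and 144 CPM in SM, and 61.7, 44.4 and 84.2 CPM in STH. Every SM value in CPM exceeded every STH value, but the lowest SM and the highest STH sheep were only 3.28 CPM apart. As TPM the breeds overlapped, with 88.6 in SM sheep 30034 and 91.1 in STH sheep XW8. The means were 110.05 ± 29.9 and 63.4 ± 20.0 CPM (SD, n = 3), a log2 fold change of SM over STH of 0.80 (SE 0.26, adjusted p = 0.247), or 1.74-fold. The exact two-sided permutation test gave p = 0.1, the smallest that 3 sheep against 3 can give. The adjusted p was 0.0860 with DESeq2, 0.101 with the likelihood ratio test and 0.187 with limma-voom. The study, by its own edgeR analysis, listed KRT36 as differentially expressed and higher in SM. With any single sheep removed the log2 fold change was at least 0.57 and at most 1.05.

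KRT84, a type II keratin described from the filiform papillae of the tongue as well as from hair, was the other gene without overlap in CPM. The SM values were 113, 93.9 and 156 CPM and the STH values 90.0, 46.1 and 91.2 CPM. The gap between the breeds was 2.65 CPM, and STH sheep XW5 stood well below the other STH sheep. As TPM the breeds overlapped, with 44.4 in SM sheep 30034 and 46.1 in STH sheep XW8. The means were 121 ± 31.6 and 75.8 ± 25.7 CPM (SD, n = 3), a log2 fold change of 0.67 (SE 0.28, adjusted p = 0.270, exact two-sided permutation p = 0.1). Such a separation, with SM higher, was found for 12.3% of the genes tested, and the reverse held for 13.3%. For the hair keratins these counts, also in CPM, were 2 and 0 of 8.

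KRT35, which appears early in shaft cells, varied most between sheep. It had 1215, 1318 and 2883 CPM in SM and 1493, 809.5 and 984 CPM in STH. STH sheep XW3 thus lay above both SM sheep 128 and SM sheep 30034, and the highest sheep had 3.56 times the lowest. The log2 fold change was 0.72 (SE 0.36, adjusted p = 0.308), and it was 0.22 without SM sheep 30126.

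KRT34, which fills the cortex at a later stage, overlapped almost fully. It had 1886, 1596 and 2628 CPM in SM and 2384, 1102 and 1587 CPM in STH. In CPM only SM sheep 30126 exceeded STH sheep XW3, and in TPM it did not, with 2230 against 2384. The log2 fold change was 0.27 (SE 0.29, adjusted p = 0.603), and with any single sheep removed it was at least 0.04 and at most 0.60. Relative to KRT34, the TPM of KRT35 was 0.424, 0.544 and 0.723 in SM and 0.413, 0.484 and 0.408 in STH, which also overlapped.

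The cuticle keratins KRT32 (type I) and KRT82 (type II) shared their order of sheep only in part. KRT32 had 159, 208 and 339 CPM in SM and 174, 126 and 186 CPM in STH. KRT82 had 235, 292 and 560.5 CPM in SM and 338, 211 and 282 CPM in STH. For both genes SM sheep 128 lay within the range of the STH sheep. The log2 fold changes were 0.54 (SE 0.28, adjusted p = 0.316) for KRT32 and 0.39 (SE 0.32, adjusted p = 0.492) for KRT82. Without SM sheep 30126 they were 0.19 and -0.06, so that the sign of KRT82 rested on that sheep. The TPM of KRT32 divided by that of KRT82 was 0.568, 0.600 and 0.509 in SM and 0.433, 0.504 and 0.554 in STH, with the breeds overlapping.

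KRT39 and KRT40, type I keratins that appear late in the shaft and lie next to each other at one end of the cluster, differed in the sheep that were high. KRT40 had 26.9, 45.8 and 66.4 CPM in SM, and 41.9, 24.3 and 36.0 CPM in STH. SM sheep 128 was thus nearly as low as STH sheep XW5, and the log2 fold change was 0.45 (SE 0.32, adjusted p = 0.435). Without SM sheep 30126 it was 0.11, and without SM sheep 128 it was 0.72. KRT39 had 179, 166 and 188 CPM in SM and 221, 120.4 and 223 CPM in STH. The SM sheep were close together, with a coefficient of variation of 6.24% against 31.2% in STH, and they lay between STH sheep XW5 and the other STH sheep. KRT39 was the only one of the 8 with a value below 0, a log2 fold change of -0.08 (SE 0.23, adjusted p = 0.855), and this sign turned to 0.05 without STH sheep XW3, to 0.06 without STH sheep XW8 and to 0.0026 with the length trend of each sheep removed.

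**Figure D2:**
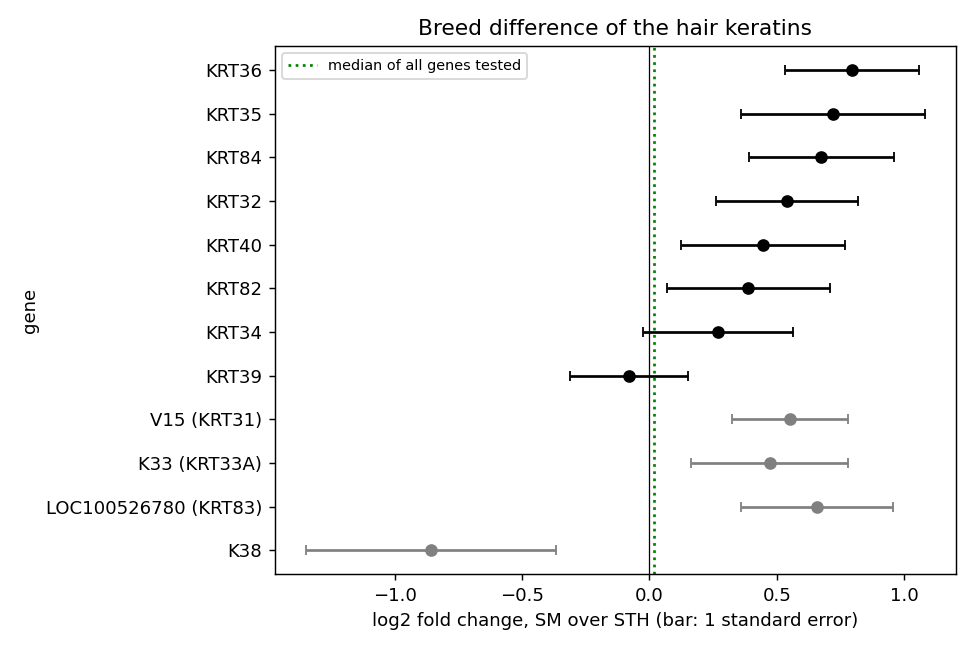
Log2 fold change of SM over STH from edgeR's quasi-likelihood fit (x axis) for the 8 hair keratins (black) and for 4 genes under other names (grey), with bars of 1 standard error and a dotted line at the median of all genes tested. The black points run from -0.08 for KRT39 to 0.80 for KRT36, and 7 of the 8 lie to the right of 0.

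In all, 7 of the 8 hair keratins were higher in SM by the sign of the log2 fold change, against 51.4% of all genes tested. Their median log2 fold change was 0.49, while that of all genes tested was 0.02. A value more than 1.5-fold higher in SM, whatever its p, was found for 3 of the 8, KRT35, KRT36 and KRT84, and for 5.99% of all genes. These counts describe the 8 genes and are not a test of them as a group, since the genes share their sheep and follicles.

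The size of the difference rested on the sheep at the extremes. In CPM, SM sheep 30126 was the highest of the 6 in 7 of the 8 genes, the exception being KRT39, which was highest in STH sheep XW8. As TPM, KRT34 too was not highest in SM sheep 30126 but in STH sheep XW3. STH sheep XW5 was the lowest in 8 of 8. Without SM sheep 30126 the median log2 fold change was 0.15, with 6 of 8 genes higher in SM (background 51.3%), and 0 of the 8 had an unadjusted p under 0.05 (background 4.84%). Without STH sheep XW5 the number at an unadjusted p under 0.05 was also 0 (background 3.13%). Without SM sheep 128 the median was 0.72, and KRT32, KRT35, KRT36, KRT40 and KRT84 had an unadjusted p under 0.05, 5 of 8 against 12.7% of all genes. SM sheep 30126 also had the highest relative exonic share, 1.18. With that share as a covariate the median was 0.12 with 5 of 8 genes higher in SM (background 49.2%), and KRT40 and KRT82 had log2 fold changes of -0.0046 and -0.06. The part of the exonic share in the keratin values was not tested beyond this fit.

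**Figure D3:**
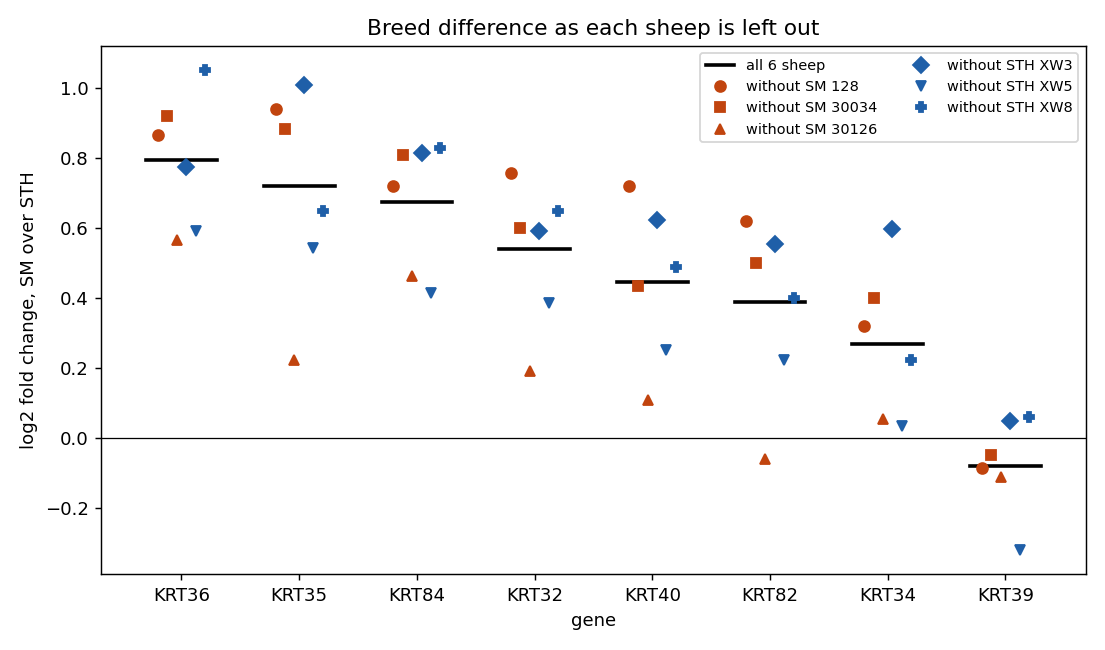
Log2 fold change of SM over STH (y axis) of each hair keratin with all 6 sheep (black bar) and with each sheep left out in turn (points, 1 for each sheep left out). The values with SM sheep 30126 or STH sheep XW5 removed are the lowest for every gene, down to -0.06 for KRT82 and -0.32 for KRT39, whereas KRT36 and KRT84 stay above 0.41.

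The balance of type I to type II transcripts was examined because the types pair in filaments. The summed TPM of the 6 type I genes divided by that of KRT82 and KRT84 was 20.7, 17.7 and 17.2 in SM and 21.3, 17.7 and 16.8 in STH. The means were 18.5 ± 1.85 and 18.6 ± 2.37 (SD, n = 3), and each breed spanned nearly the range of the other. The size of this ratio is set by which genes were found, since abundant type II hair keratins were not among the 8. With V15, K33 and LOC100526780, which are hair keratins under other names, added to the sums it was 2.28, 2.38 and 2.30 in SM and 2.38, 2.74 and 2.79 in STH. STH sheep XW3 then lay at the level of SM sheep 30034, and the other STH sheep lay above the SM range. LOC100526780 was the only type II gene added, so that this ratio too depends on which genes were found.

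Among the relations between single genes, that of KRT36 to KRT39 was one that separated the breeds, and it was chosen after the values had been seen. The CPM of KRT84 divided by that of KRT39 did so too, and the pairs that separate the breeds were not counted. The CPM of KRT36 divided by that of KRT39 was 0.551, 0.527 and 0.765 in SM, and 0.280, 0.369 and 0.378 in STH. Gene length is not corrected in this ratio, which is therefore read only between sheep and not as a difference in level between the genes. The lowest SM sheep stood above the highest STH sheep, and the means were 0.614 ± 0.131 and 0.342 ± 0.0542 (SD, n = 3). No test was made, because the pair was picked from the values.

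Of 7 further hair keratins that were looked for, 3 were found through the name table. V15 carries KRT31 as a synonym, K33 is listed there as KRT33A, and LOC100526780 carries KRT83 as a synonym. These were more abundant than any of the 8, at 4882 TPM for V15, 4416 TPM for LOC100526780 and 3192 TPM for K33 as means over the 6 sheep. V15 had 5113, 5091 and 7418 CPM in SM and 5002, 3170 and 3860 CPM in STH. The breeds thus did not overlap, with a log2 fold change of 0.55 (SE 0.23, adjusted p = 0.267, exact two-sided permutation p = 0.1). K33 showed a log2 fold change of 0.47 (SE 0.31, adjusted p = 0.396). LOC100526780 had 0.66 (SE 0.30, adjusted p = 0.285), and its region contains KRT2.11 on the opposite strand, from which its reads may not be separable. In K33 and LOC100526780 the breeds overlapped. KRT2.11 was not added to any sum of the hair keratins. With any single sheep removed V15 was at least 0.36 and at most 0.74, K33 at least 0.16 and at most 0.70, and LOC100526780 at least 0.40 and at most 0.99, the lowest values being those without SM sheep 30126 and the highest those without STH sheep XW3. With the relative exonic share as a covariate K33 was 0.09, V15 0.36 and LOC100526780 0.39. With these 3 genes the hair keratins made up between 0.985% and 2.15% of all transcripts.

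A further gene, K38, was looked at after its values had been seen. It lies in the same cluster on chromosome 11, from 41062085 to 41085179, and the name table does not connect it with KRT38. It was scarce at a mean of 18.2 TPM. It had 10.97, 12.2 and 13.3 CPM in SM and 33.1, 6.18 and 27.04 CPM in STH. The SM sheep fell between STH sheep XW5 and the other STH sheep, as they did for KRT39. The log2 fold change was -0.86 (SE 0.49, adjusted p = 0.347). It was -0.44 without STH sheep XW3, -1.30 without STH sheep XW5 and -0.46 with limma-voom.

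Regulators of the hair shaft were mostly on the same side as the keratins. Of 12 listed, 11 were tested, FOXQ1 not being found. Of these 11, 10 were higher in SM, against 51.4% of all genes, with a median log2 fold change of 0.43. None passed the thresholds, and 3 had an unadjusted p under 0.05 as higher in SM, against the 7.21% of all genes given above. These were MSX1, a homeobox factor of the matrix, at 0.65 (SE 0.16, adjusted p = 0.232), FOXN1, a factor needed for shaft differentiation, at 0.67 (SE 0.24, adjusted p = 0.255), and DLX3, a homeobox factor of matrix and shaft, at 0.55 (SE 0.21, adjusted p = 0.256). HOXC13, which acts on hair keratin promoters, had 282, 340.5 and 559.5 CPM in SM and 336, 261 and 277 CPM in STH. As for most of the keratins, SM sheep 30126 was highest and STH sheep XW5 lowest, and the breeds overlapped.

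Other proteins of shaft cells were more mixed. Of 11 tested (LPAR6 did not pass the count filter), 8 were higher in SM, against 51.4% of all genes, and 3 in STH, with a median of 0.22. None passed the thresholds, and 3 were higher in SM at an unadjusted p under 0.05, against 7.21% of all genes. These were CRYM, which was scarce at 2.71 to 17.0 CPM, at 1.59 (SE 0.38, adjusted p = 0.229), the membrane protein VSIG8 at 0.82 (SE 0.31, adjusted p = 0.256) and S100A3, a calcium-binding protein of the cuticle, at 0.65 (SE 0.26, adjusted p = 0.265). DSG4, a desmosomal cadherin of the shaft, showed a log2 fold change of -0.29 (SE 0.16, adjusted p = 0.337).

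For the sheaths around the shaft, 2 of 8 tested genes of the inner root sheath were higher in SM and 6 in STH (median -0.19), where 51.4% of all genes were higher in SM. At an unadjusted p under 0.05, 1 of the 8 was higher in STH, near the 10.8% of all genes. This was KRT27, a type I keratin of that sheath, at -0.52 (SE 0.17, adjusted p = 0.247). This list summed to 10963, 12686 and 14322 CPM in SM and to 12995, 15130 and 18335 CPM in STH. The summed CPM of the 8 hair keratins divided by that of the list was 0.357, 0.300 and 0.486 in SM and 0.370, 0.164 and 0.189 in STH. STH sheep XW3 thus lay within the SM range, while the other STH sheep lay below it. The 4 tested genes of the outer root sheath had log2 fold changes below 0 (median -0.18), with 0 at an unadjusted p under 0.05.

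**Figure D4:**
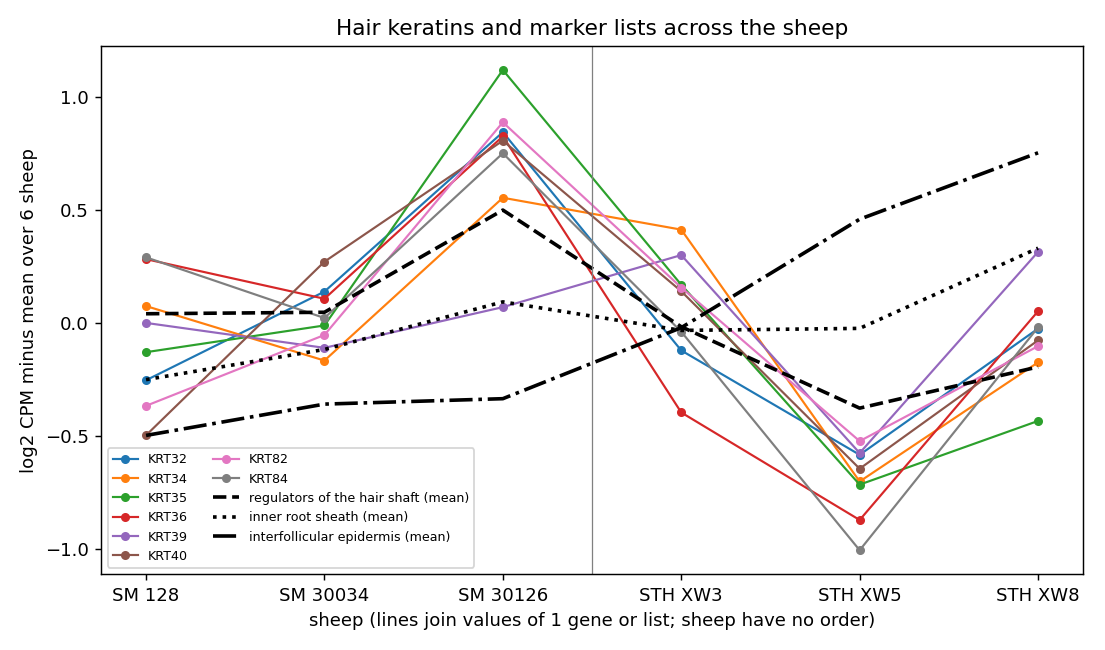
Log2 CPM of each hair keratin in each sheep minus its mean over the 6 sheep (y axis), with the mean over 3 lists of genes in black, the regulators of the hair shaft dashed, the inner root sheath dotted and the interfollicular epidermis dash-dotted. Most keratins and the regulators peak in SM sheep 30126 and are lowest in STH sheep XW5, while the epidermis list is highest in STH sheep XW8.

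Markers of other cells of the skin were read against the 7.21% of all genes that were higher in SM and the 10.8% higher in STH at an unadjusted p under 0.05. By sign alone, 51.4% of all genes tested were higher in SM. All 8 tested genes of the interfollicular epidermis were higher in STH, 6 of them at an unadjusted p under 0.05, their median being -0.80 on the log2 scale, with sums of 10496 to 12503 CPM in SM against 13048 to 20873 CPM in STH. KRT5 and KRT14 supplied most of these sums, and in each of them the breeds overlapped. KRT5 had 4670 to 5888 CPM in SM and 5557 to 8419 CPM in STH, and KRT14 2602 to 3576 and 3522 to 5257 CPM. All 7 tested sebocyte genes were higher in SM, 6 at an unadjusted p under 0.05 (median 1.13), with sums of 1002 to 1877 CPM against 525 to 740 CPM. Smooth muscle genes were higher in STH by sign in 5 of 5 (median -0.65, 4 at an unadjusted p under 0.05), with sums of 1039 to 1249 CPM in SM against 1653 to 2111 CPM. TAGLN among them was nearly equal in the breeds, with a log2 fold change of -0.0089. Adipocyte genes were higher in STH in 3 of 4 (median -0.92, 2 at an unadjusted p under 0.05), with sums of 30.9 to 66.7 CPM in SM against 140.4 to 177 CPM. FABP4, a fatty acid-binding protein, made up nearly all of these sums, with 27.8 to 62.6 CPM in SM and 128 to 169 CPM in STH, while PLIN1 had a log2 fold change of 0.14 and ADIPOQ overlapped between the breeds. Endothelial genes were higher in SM in 4 of 4 (median 0.53, 2 at an unadjusted p under 0.05), with sums of 494 to 633 CPM against 312 to 516 CPM in STH. The medians of the remaining lists were 0.23 for 6 genes of the dermal papilla (5 higher in SM, 1 at an unadjusted p under 0.05), 0.12 for 6 genes of proliferating cells (4 higher in SM), -0.19 for 5 of dermal fibroblasts (1 higher in SM, and 1 higher in STH at an unadjusted p under 0.05), 0.17 for 4 of immune cells (2 higher in SM, 1 at an unadjusted p under 0.05) and 0.24 for 3 of melanocytes (3 higher in SM). At an unadjusted p under 0.05 these lists held at most 1 gene each. The melanocyte genes were scarce, TYR lying at 0.130 to 0.487 CPM over the 6 sheep, near the floor of 3 counts. No gene of these lists passed the thresholds, and no tested marker was at 0 in any sheep. The part of the makeup of the skin in the keratin values was not tested.

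The genes nearest in pattern to the hair keratins were found from the root mean square difference between centred log2 CPM profiles over the 6 sheep, against the mean profile of the 8 genes. The nearest 5 were ZNRD1, a subunit of RNA polymerase I, at 0.0464, RPL36, a ribosomal protein, at 0.0753, HSPB8, a small heat shock protein, at 0.0777, SLC35A4 at 0.0784 and WBSCR22 at 0.0809. The median of all genes was 0.493. The hair keratins themselves were farther from their own mean than these 5, from 0.137 for KRT32 to 0.333 for KRT39. The likeness is over 6 sheep with 1 library each, whose depth and composition all genes share, and it was picked as the smallest over all the genes tested.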

How the data were processed

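Poly(A) RNA from the skin of 6 sheep, 3 of each breed, gave 6 paired-end libraries (Illumina TruSeq kit, with strand not stated). Reads were checked with FastQC, per the labels, and mapped to Oar_v4.0 in CLC Genomics Workbench, per the methods of the study. The authors deposited for each gene a total count, which is a whole number without normalization, and the rule by which reads were counted is not stated. The deposited RPKM was used only, with the count, for relative exon lengths and the relative exonic share. The deposited TPM was used to compare genes with each other. A CPM column that the authors also deposited was not used.

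The 15320 of 28394 genes that reached 10 counts in 3 or more sheep were normalized by TMM and tested with edgeR 4.0.16 in R 4.3.3 (glmQLFit and glmQLFTest at their defaults, breed as the only term), with Benjamini-Hochberg adjustment over all of them. Passing genes had an adjusted p under 0.05 and a change over 1.5-fold. Standard errors are the log2 fold change divided by the root of F. Floors of 3 counts cover counting error only. Alternatives were DESeq2 1.42.0, limma 3.58.1 (voom), the likelihood ratio test, RLE and upper quartile factors, other count minimums and thresholds, the relative exonic share as a covariate, the length trend of each sheep removed, and each sheep removed. The length trend was a loess fit (span 0.5) on log2 relative exon length. It was fitted within each sheep to log2 CPM minus the gene's mean over the sheep, and entered the model as an offset.

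The hair keratins, gene lists and tests were chosen with earlier results of these data known. Named genes were all members, the other hair keratins KRT31, KRT33A, KRT33B, KRT37, KRT81, KRT83 and KRT86 where found by symbol or name table, and the 5 genes of nearest profile. The lists were regulators of the hair shaft, other proteins of shaft cells, and markers of the inner and outer root sheath, epidermis, proliferating cells, dermal papilla, fibroblasts, sebocytes, smooth muscle, adipocytes, endothelium, immune cells and melanocytes. Genes of the lists named in the text were chosen after their values had been seen, as those with an unadjusted p under 0.05 in the first 3 lists, with HOXC13, DSG4, KRT5, KRT14, TAGLN, FABP4, PLIN1, ADIPOQ and TYR. The RefSeq name table, of another assembly (ARS-UI_Ramb_v3.0), matched 21630 of the 28394 identifiers and was used only for names. No protein or promoter sequence was used here.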

Additional observations from a re-analysis of the deposited data

How the results depend on the processing

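No paired analysis was possible because each label names an individual animal and no number links animals of different breeds. Of 120 comparisons of a hair keratin's log2 fold change under 15 alternatives, 114 kept their sign and 6 did not, and none passed both thresholds (lowest adjusted p 0.0791, for KRT32 without SM sheep 128). The sign turned for KRT39 with the length trend removed (0.0026), without STH sheep XW3 (0.05) and without STH sheep XW8 (0.0603), its range with single sheep removed being -0.32 to 0.0603, for KRT40 with the exonic share as a covariate (-0.0046), and for KRT82 with that covariate (-0.0604) and without SM sheep 30126 (-0.0581, the range with single sheep removed reaching 0.62). The cause was not tested. The median of the 8 genes, 0.49, was 0.12 with that covariate and was 0.15 to 0.72 with single sheep removed. The number higher in SM, 7, was 5 with that covariate, 8 with the length trend removed and 6 to 8 with single sheep removed. The number at an unadjusted p under 0.05, 2, was 1 (KRT36) with that covariate or with a minimum of 50 counts, 3 with DESeq2 (KRT35, KRT36 and KRT84), 3 with the length trend removed (KRT32, KRT36 and KRT84), and 0 to 5 with single sheep removed. Of all 15320 genes, 1104 were higher in SM at that p by the quasi-likelihood test and 858 with that covariate. With DESeq2 there were 1197 and with the length trend removed 1590, and with a minimum of 50 counts 1010 of 13503. Removing the length trend also moved the median of all genes, from 0.02 to 0.08. The number of genes passing over the whole table, 0 by the quasi-likelihood test (2762 at an unadjusted p under 0.05) and by limma-voom, was 439 with DESeq2, 352 with the likelihood ratio test, 2 without the count filter, 8 with the length trend removed and 5 at an adjusted p under 0.1. It was 0 to 1175 with single sheep removed, the highest without SM sheep 128. With upper quartile factors the genes at an unadjusted p under 0.05 were 1437 higher in SM and 1402 higher in STH. The log2 difference between the breeds in the ratio of type I to type II transcripts was -0.0048 and -0.18 with the other hair keratins added, and was -0.0901 to 0.103 with single sheep removed. For the share of transcripts it was 0.30, between 0.0964 and 0.55. For the hair keratins counting error was at most 3.50% in any library.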
